A study of Homo sapiens with 6 samples.

Results

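Replication-dependent histone genes were described in RNA sequencing of H358 cells, an established cell line from a human non-small cell lung tumour, bronchioalveolar per the labels. The members are the genes of the deposited count table whose symbol has the older form HIST1H, HIST2H, HIST3H or HIST4H, without pseudogenes whose symbol ends in PS or in PS and a number. This gave 76 of 57445 genes, namely 6 for H1, 17 for H2A, 23 for H2B, 15 for H3 and 15 for H4. The libraries come from clone C2, clone C1 and the parental line, with 2 libraries each, numbered replicate 2 and replicate 1. Both clones are called isogenic and are listed with the BRMS1v2 change A273V on both copies, and the parental line is listed as BRMS1 wild type (WT). BRMS1 is a metastasis suppressor of the SIN3-HDAC co-repressor complex. All groups grew in RPMI with serum, and each of C1 and C2 is a single clone. How the clones arose, what the replicate number marks, whether replicates grew as separate cultures, and whether RNA was selected by its poly(A) tail are not stated in the labels. The p-values below therefore measure the spread between these libraries, which may be technical.

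These genes supply the bulk of histone protein while DNA is copied. H2A, H2B, H3 and H4 form the nucleosome core, and H1 binds the linker DNA. Most of their transcripts lack introns and a poly(A) tail, and end instead at a short stem-loop. The stem-loop is bound by SLBP, which is needed for processing and translation, and such transcripts are degraded when DNA synthesis stops. Some members also yield longer, polyadenylated transcripts that read past the stem-loop and are known from differentiated or resting cells. How well a library holds the stem-loop form depends on how RNA was selected.

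The stem-loop letters are shown first because they are what sets these transcripts apart from other messenger RNAs. They were found by sequence in GENCODE 29 transcript models on GRCh38, which were matched by symbol for 76 of 76 members, 39 of them with the same stable ID as in the count table. A match was found in 35 members. The 6 shown are members with a mean of at least 1 CPM (counts scaled to library size), as DNA letters of the transcript strand, and capitals mark the stem and loop of 16 bases.
HIST2H2BE: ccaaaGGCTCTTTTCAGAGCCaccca
HIST1H2AC: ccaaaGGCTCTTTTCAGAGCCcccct
HIST1H2BD: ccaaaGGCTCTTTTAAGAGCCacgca
HIST1H4H: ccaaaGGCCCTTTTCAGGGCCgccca
HIST1H2AG: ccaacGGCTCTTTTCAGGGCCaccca
HIST1H3H: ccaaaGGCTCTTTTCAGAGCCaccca
HIST2H2BE, HIST1H2AC and HIST1H3H carry the same 16 letters, while HIST1H4H has another stem. A model that ran more than 100 bases past its stem-loop was listed for 11 of the 16 members with a mean of at least 1 CPM (68.8%) and for 14 of the 60 below it (23.3%). Of these longer models, 7 of 11 and 11 of 14 held AATAAA or ATTAAA in their last 40 bases. A stem-loop match was found in 12 of these 16 and 23 of these 60 members, and members without a match could not enter the longer models. The 2 shares thus also reflect how far the models reach. Of the 16 members, models of HIST1H2BK, HIST1H1C, HIST1H2BJ and HIST2H2BA held no match. Their longest models had 381, 642, 950 and 752 bases in this order. A model that ends before a stem-loop cannot hold one, so no match does not show that the gene lacks it. A match describes the model, and these 50-nt read counts per gene do not show which transcript form was read.

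Few members held most of the counts. CPM values here use library sizes corrected by edgeR's TMM factors and are not per length, so they are compared between libraries and not between genes. Of the 76 members, 14 had no count in any library, which allows a mean of up to 0.016 CPM, 33 had counts but were too low to be tested, and 29 were tested. A mean of at least 1 CPM was reached by 16 members. They are HIST1H2BK, HIST2H2BE, HIST1H2BD, HIST1H2BN, HIST1H2BJ, HIST1H2BC, HIST2H2BA and HIST2H2BF for H2B, HIST1H2AC, HIST1H2AG and HIST3H2A for H2A, HIST1H4H, HIST1H4I and HIST4H4 for H4, HIST1H3H for H3 and HIST1H1C for H1. HIST2H2BF had the lowest mean among them, at 1.05 CPM, and HIST1H2AI lay just below the limit at 0.917 CPM. GENCODE 29 lists 70 of the 76 members as protein-coding and HIST2H2BA as a transcribed pseudogene. H2B genes held 65.7% of the 67360 member counts, H2A genes 16.6%, H1 genes 13.6%, H4 genes 3.36% and H3 genes 0.732%. The 5 members with the highest mean, HIST1H2BK, HIST2H2BE, HIST1H2AC, HIST1H1C and HIST1H2BD, held 85.7%. The identical copies HIST2H2AA3 and HIST2H2AA4, HIST2H3A and HIST2H3C, and HIST2H4A and HIST2H4B had 0 or 1 count each over all libraries. Reads aligned to more than 1 place are in a total of their own, of 6.77% to 7.56% of the listed reads per library, so the levels of these copies are uncertain.

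Libraries held 27527867 to 37146270 gene counts, and genes took 77.6% to 78.7% of the listed reads. Epithelial markers were high, with EPCAM at 581.5 to 964.5 CPM, whereas the surfactant genes SFTPB and SFTPC had at most 2 counts in any library. Markers of other cell types were mixed: DCN, PDGFRB and CD3E had at most 5 counts in any library, while the fibroblast-listed COL1A1 lay at 25.9 to 57.1 CPM and LUM at 13.0 to 24.5 CPM.

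The summed histone level was higher in replicate 2 than in replicate 1 in every group, and 5 genes carried most of the sum. The 76 members summed to 513.9, 505.3 and 430.1 CPM in replicate 2 of C2, C1 and WT, against 257.1, 251.9 and 211.2 CPM in replicate 1. All 3 replicate 2 libraries lay above all 3 replicate 1 libraries, and the ratio was 2.00 in C2, 2.01 in C1 and 2.04 in WT. Replicate 2 averaged 483.1 ± 46.1 CPM and replicate 1 averaged 240.0 ± 25.1 CPM (SD, n = 3 each; exact permutation test over the 6 libraries, two-sided p = 0.1, the smallest this design allows). The 5 members with the highest mean had ratios of 2.13 in C2, 2.12 in C1 and 2.07 in WT. The other 71 members summed to 60.5, 56.8 and 72.4 CPM in replicate 2 of C2, C1 and WT, against 43.7, 39.9 and 38.5 CPM in replicate 1, with smaller and less equal ratios of 1.38, 1.42 and 1.88. For the 60 members below 1 CPM, the sum was lower in replicate 2 in C2 and higher in C1 and WT, with ratios of 0.853, 1.26 and 1.40. Among them, HIST1H2AI and HIST1H3J were called higher and HIST2H2AC lower in edgeR, as given below. Their sum was 7.43, 8.32 and 11.5 CPM in replicate 2 of C2, C1 and WT, against 8.70, 6.61 and 8.22 CPM in replicate 1 (exact permutation p = 0.5).

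In edgeR's quasi-likelihood test with group and replicate number as terms, 12 of 29 tested members were called at an adjusted p below 0.05 (Benjamini-Hochberg over all 17129 genes tested). That is 41.4% of the members, against 24.7% of all genes. Of the 12, 11 were higher in replicate 2, where 12.5% of all genes were called higher, and 1 was lower, where 12.2% were. HIST1H3J of the higher ones and HIST2H2AC, the lower one, passed the filter on low counts through 1 replicate number only. Both were also called without that filter. The median log2 difference, replicate 2 minus replicate 1, was 0.59 over the 29 members and 0.00 over all genes. All 3 replicate 2 libraries lay above all 3 replicate 1 libraries for 13 of 29 members (44.8%, against 17% of all genes) and below them for 2 of 29 (6.9%, against 18.5%).

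**Figure D1:**
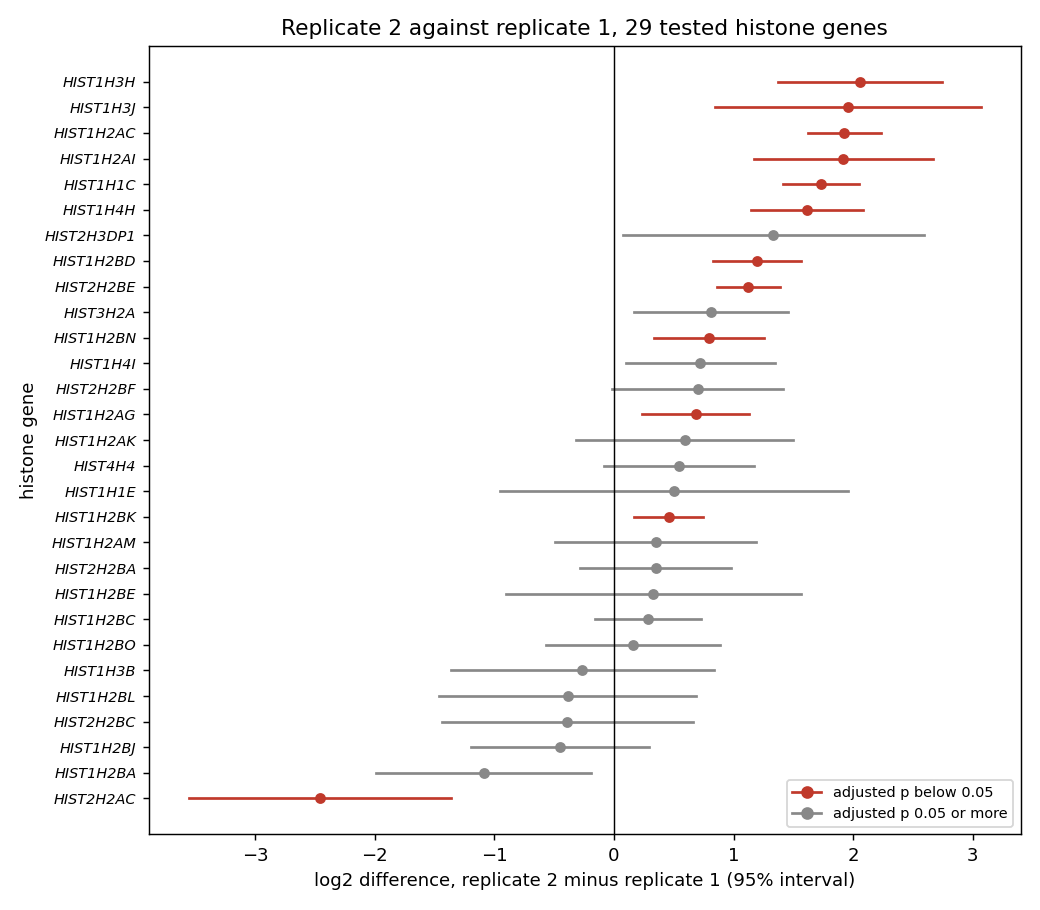
Log2 difference, replicate 2 minus replicate 1, with its 95% interval for each of the 29 tested histone genes (x axis), ordered by value (y axis). Red points have an adjusted p below 0.05: 11 lie to the right of 0, and HIST2H2AC lies alone to the left at -2.46. HIST2H2AC and HIST1H3J passed the filter on low counts through 1 replicate number only.

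Of the H2A and H2B genes known for polyadenylated transcripts, HIST1H2AC, HIST2H2BE, HIST1H2BD and HIST1H2BK rose in replicate 2. HIST1H2AC, a core H2A gene, had 78.2, 86.2 and 66.0 CPM in replicate 2 of C2, C1 and WT, against 20.4, 26.7 and 14.9 CPM in replicate 1. The lowest replicate 2 library was above the highest replicate 1 library by a wide margin. Its log2 difference was 1.92 (SE 0.14, adjusted p = 2.8e-06, edgeR). HIST2H2BE, an H2B gene of the chromosome 1 cluster, had 120.3, 130.6 and 85.0 CPM in replicate 2, against 55.6, 58.1 and 40.1 CPM in replicate 1 (groups in the same order). Replicates did not overlap, and within each number WT was the lowest of the 3 groups. The log2 difference was 1.12 (SE 0.12, adjusted p = 4.2e-05, edgeR). HIST1H2BD had 27.9, 21.4 and 23.8 CPM in replicate 2, against 10.98, 11.8 and 9.08 CPM in replicate 1, again without overlap (log2 difference 1.20, adjusted p = 3.2e-04, edgeR). HIST1H2BK had 152.7, 148.2 and 95.9 CPM in replicate 2, against 104.2, 92.3 and 87.3 CPM in replicate 1. Here the replicates overlapped, since replicate 2 of WT lay below replicate 1 of C2, and the difference was smaller (0.46, adjusted p = 0.024, edgeR). HIST1H2BC had 6.47, 5.31 and 6.39 CPM in replicate 2, against 4.77, 5.09 and 4.99 CPM in replicate 1, and its difference of 0.29 did not pass the test (adjusted p = 0.34, edgeR). GENCODE 29 lists genes that overlap HIST1H2BD, HIST1H2BN, HIST2H2BA and HIST2H2BF, so counts of these 4 are uncertain without a strand setting.

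HIST1H1C, which encodes a linker histone, had 74.3, 62.1 and 87.1 CPM in replicate 2 of C2, C1 and WT, against 22.2, 23.2 and 21.3 CPM in replicate 1. The 3 replicate 1 libraries were close to each other, and all replicate 2 libraries were far above them (log2 difference 1.73, SE 0.15, adjusted p = 7.3e-06, edgeR). The other tested H1 gene, HIST1H1E, had 15, 9 and 60 counts in replicate 2, against 19, 19 and 12 counts in replicate 1. Only WT was higher in replicate 2, and the difference did not pass the test (0.50, 95% interval -0.96 to 1.96, adjusted p = 0.61, edgeR). The replicate difference in the clones minus that in WT was -3.04 for HIST1H1E (adjusted p = 0.051, edgeR interaction). That value rests mainly on replicate 2 of WT, with its 60 counts. No member passed the interaction test, which called 95 of 17129 genes. At an unadjusted p below 0.05 it held 3 of 29 members, and the share of all genes at that level is not given. With 6 libraries, the added interaction term leaves little spread to test against.

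Among H4 and H3 genes, HIST1H4H had 11.7, 14.8 and 13.6 CPM in replicate 2 of C2, C1 and WT, against 5.48, 4.41 and 3.33 CPM in replicate 1. The replicates did not overlap (log2 difference 1.62, SE 0.22, adjusted p = 2.2e-04, edgeR). HIST1H3H had 2.10, 1.77 and 2.79 CPM in replicate 2, against 0.316, 0.480 and 0.831 CPM in replicate 1. It had the highest difference of the 29 members, at 2.06 (SE 0.32, adjusted p = 5.6e-04, edgeR). HIST1H3J, an H3 gene of low counts, had 19, 19 and 15 counts in replicate 2, against 4, 2 and 8 in replicate 1 (1.95, SE 0.52, adjusted p = 0.015, edgeR). It passed the filter on low counts only through its replicate 2 libraries. HIST1H4I and HIST4H4 did not pass the test, with differences of 0.72 and 0.54 (adjusted p = 0.084 and 0.19, edgeR).

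Of the remaining H2A and H2B genes, 3 rose and 1 fell. HIST1H2BN had 10.3, 9.59 and 12.01 CPM in replicate 2 of C2, C1 and WT, against 6.56, 7.18 and 4.77 CPM in replicate 1 (0.79, adjusted p = 0.017, edgeR). HIST1H2AG had 9.07, 7.08 and 9.12 CPM in replicate 2, against 5.79, 5.45 and 4.45 CPM in replicate 1 (0.68, adjusted p = 0.028, edgeR). The numbers did not overlap for either gene. HIST1H2AI had 1.27, 1.74 and 1.35 CPM in replicate 2, against 0.421, 0.311 and 0.416 CPM in replicate 1 (1.92, adjusted p = 0.0017, edgeR). HIST2H2AC, an H2A gene, was the member that fell: it had 1, 5 and 5 counts in replicate 2, against 17, 19 and 28 counts in replicate 1. Its replicate numbers did not overlap, and the log2 difference was -2.46 (SE 0.51, adjusted p = 0.0039, edgeR). HIST2H2AC passed the filter on low counts only through its replicate 1 libraries. HIST1H2BJ had 5.38, 1.97 and 7.504 CPM in replicate 2, against 6.63, 5.79 and 5.88 CPM in replicate 1, with replicate 2 of C1 far below the other libraries. Its difference did not pass the test (-0.45, adjusted p = 0.35, edgeR). HIST3H2A, HIST2H2BF and HIST2H2BA lay between 0.622 and 2.57 CPM in all libraries, with differences of 0.81, 0.70 and 0.35 that did not pass (adjusted p = 0.065, 0.14 and 0.42, edgeR).

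**Figure D2:**
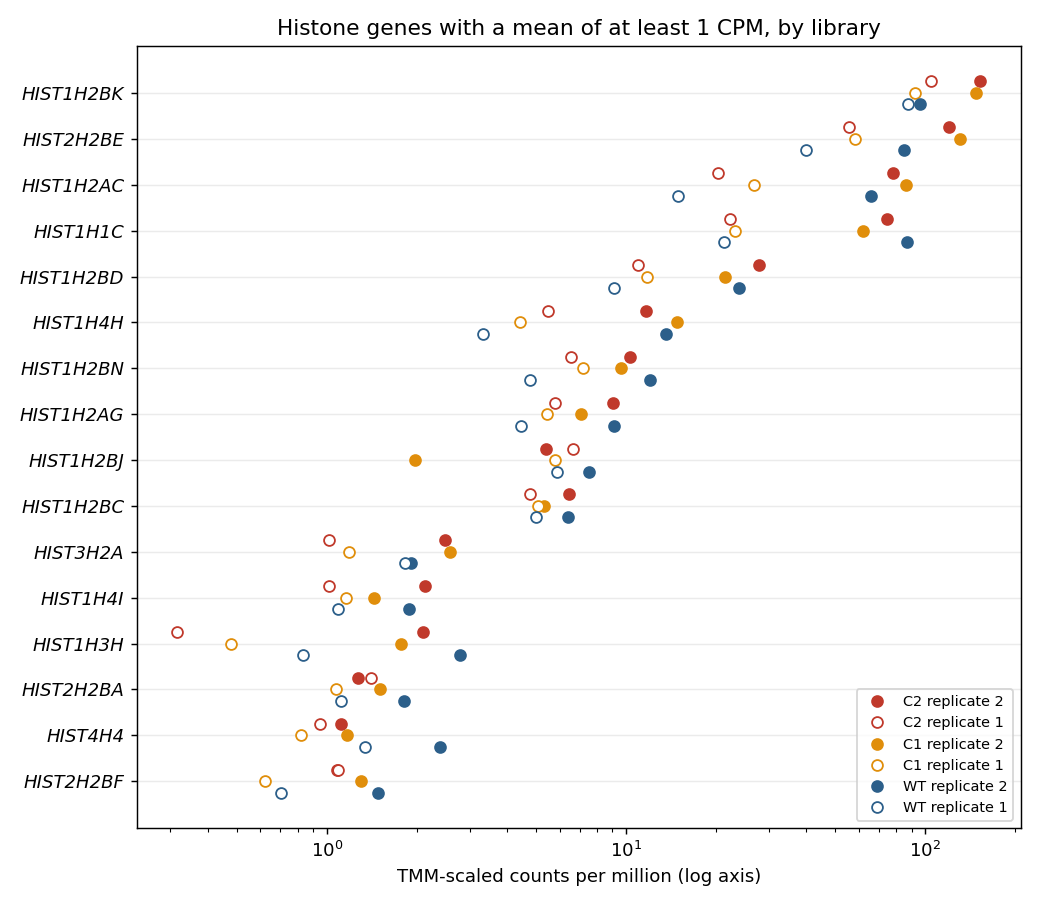
TMM-scaled CPM on a log axis (x) of the 16 histone genes with a mean of at least 1 CPM (y), 1 point per library. Filled points (replicate 2) lie to the right of open points (replicate 1) in all 3 groups for HIST2H2BE, HIST1H2AC, HIST1H1C, HIST1H2BD, HIST1H4H and HIST1H3H, while HIST1H2BJ has its lowest point in replicate 2 of C1.

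Of the 7 genes listed as known for polyadenylated transcripts, 6 were tested and 5 of these rose in replicate 2, with a median of 1.16. Over all genes, 12.5% were called higher. HIST2H2AA3, the seventh, had 1 count in all. Among the 23 other tested members, 6 rose and 1 fell, with a median of 0.54. The difference between these lists was not tested. The list was chosen with earlier results of these data known, and it holds the 5 members with the highest mean CPM. Its share of calls therefore describes these genes only. The calls of HIST1H2AC, HIST2H2BE, HIST1H1C and HIST1H4H held under all 11 alternatives tried. Without either library of C2, the count was 4 of 32 members (12.5%) in place of 12 of 29, while over all genes 4.11% were called without its replicate 2 and 3.43% without its replicate 1. SLBP then lost its call as well, at -0.71 in both fits (adjusted p = 0.11 and 0.12, edgeR). Without a filter on low counts, 62 members were tested and 17 called (27.4%, against 15.9% of all genes), 14 higher and 3 lower. The 5 called members not among the 12 above were HIST3H2A (0.81), HIST1H1T (2.13, 32 counts in all) and HIST1H4K (3.51, 15 counts in all), and on the lower side HIST1H2BA (-1.09) and HIST1H4A (-2.40, 33 counts in all).

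Genes of DNA replication moved the other way. Of 42 genes for G1/S transition and DNA replication, 42 fell in replicate 2 in edgeR, where 12.2% of all genes were called lower. Their median log2 difference was -1.55. They summed to 1136, 967.4 and 1089 CPM in replicate 2 of C2, C1 and WT, against 3439, 2546 and 3677 CPM in replicate 1. RRM2, the small subunit of ribonucleotide reductase, TYMS, which makes thymidylate, CCNE2, a cyclin that activates CDK2, and E2F8 changed most, by -2.97, -2.78, -2.66 and -2.62 (adjusted p = 1.4e-04, 5.6e-07, 0.0012 and 8.8e-04). PCNA, the sliding clamp of DNA polymerase, had 61.7, 49.4 and 52.1 CPM in replicate 2, against 187.1, 131.6 and 215.2 CPM in replicate 1 (-1.69, adjusted p = 7.3e-06, edgeR). Replicates of PCNA did not overlap in any group.

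The 27 genes for G2/M and mitosis summed to 1575, 390.8 and 1963 CPM in replicate 2 of C2, C1 and WT, against 5173, 4629 and 4176 CPM in replicate 1. All 27 were lower in replicate 2 within each group, with medians of -1.86 in C2, -3.74 in C1 and -1.09 in WT. edgeR called 0 of them, against 24.7% of all genes (3 at an unadjusted p below 0.05, against 37.3% of all genes, median -2.16). DESeq2 called 27, against 22.4% of all genes. Without replicate 2 of C1, the edgeR median was -1.475. MKI67, a proliferation marker, had 56.8, 10.6 and 66.5 CPM in replicate 2, against 258.4, 179.3 and 209.7 CPM in replicate 1 (-2.59, adjusted p = 0.14, edgeR). CDK1, the mitotic kinase, had 39.2, 11.1 and 39.4 CPM, against 148.8, 147.6 and 100.5 CPM (-2.30, adjusted p = 0.16, edgeR). In bulk RNA, fewer cells in a phase and less RNA per cell cannot be told apart.

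**Figure D3:**
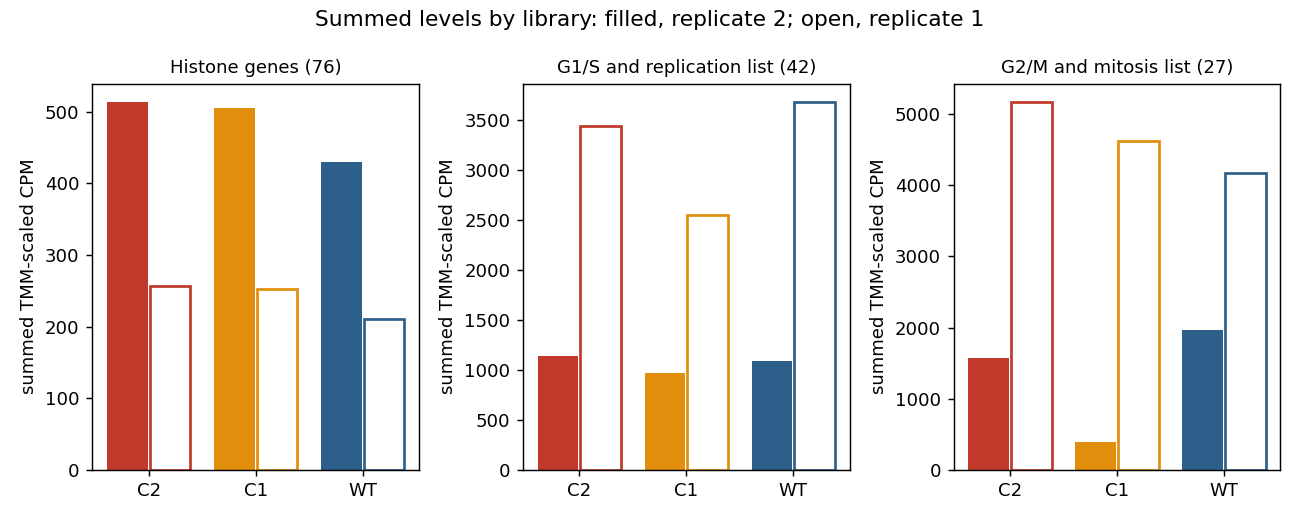
Summed TMM-scaled CPM per library (y axes, from 0) of the 76 histone genes, 42 G1/S and replication genes and 27 G2/M and mitosis genes in C2, C1 and WT, with filled bars for replicate 2 and open bars for replicate 1. Histone bars, of which 5 genes hold most, are 2.00 to 2.04 times as high in replicate 2, while the cell-cycle bars are lower in replicate 2 in each group.

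Factors that make, process and load histones were mixed or lower in replicate 2. Of 27 genes for histone transcription, processing and decay, 8 fell and 2 rose (37% called, against 24.7% of all genes, median -0.23). SLBP, which binds the stem-loop, had 67.8, 63.4 and 56.8 CPM in replicate 2 of C2, C1 and WT, against 108.1, 81.9 and 118.4 CPM in replicate 1 (-0.70, SE 0.14, adjusted p = 0.0040, edgeR). NPAT, the activator of histone gene clusters, did not pass the test (-0.23, 95% interval -0.54 to 0.07, adjusted p = 0.25, edgeR). CDK2, which phosphorylates NPAT, fell by 1.27 and POU2F1, the octamer-binding factor Oct-1, fell by 0.73, whereas MIF4GD, an SLBP partner in translation, rose by 0.83 (adjusted p = 3.3e-05, 0.0019 and 9.0e-04). Of 17 histone chaperone genes, 10 fell and 1 rose (64.7% called), led by ASF1B (-2.15) and CHAF1B (-2.04), which deposit new H3 and H4 behind the replication fork. CHAF1A and CHAF1B of the chaperones, and CCNE1 and CCNE2 of the 27 genes above, were also on the G1/S list. Their calls are thus counted in both lists. Of 11 tested histone genes outside the replication-dependent set, 5 fell and 0 rose (45.5% called), led by H2AFX (-1.56), the histone phosphorylated at DNA breaks, and H2AFZ (-1.15). Of 17 genes in a mixed list of CDK inhibitors, cycle exit genes and cyclins, 2 rose and 4 fell (35.3% called), among them CDKN2C (-2.13) and RBL1 (-1.42). The cyclins in it, CCND1 and CCND3 among them, are neither inhibitors nor exit genes. CDKN1A, the inhibitor p21, did not pass the test (0.30, 95% interval -0.25 to 0.85, adjusted p = 0.39, edgeR), and its sign changed without either library of C2.

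Some markers of other cell types were also higher in replicate 2, where 12.5% of all genes were called higher. The fibroblast list summed to 61.9 to 70.8 CPM in replicate 2, against 39.3 to 49.8 CPM in replicate 1, and 2 of 3 tested members rose in edgeR (COL1A1 by 0.64 and COL3A1 by 2.22) and 1 in DESeq2. COL3A1 had 6, 2 and 77 counts in replicate 2 of C2, C1 and WT, against 1, 3 and 12 in replicate 1, so C1 was not higher. The third, LUM, had 0.41 (adjusted p = 0.115, edgeR), and DCN had at most 3 counts in any library. The endothelial list summed to 21.4 to 42.3 CPM, against 9.79 to 18.5 CPM, with 1 of 3 tested members higher (KDR, 1.15), and CDH5 lay at 0.337 to 2.44 CPM over the libraries. The leukocyte list summed to 4.86 to 5.38 CPM, against 2.77 to 3.77 CPM, with 1 of 4 tested members higher (CD14, 1.19), and PTPRC lay at 0.0928 to 0.367 CPM. The lung epithelial list had 0 of 9 calls in edgeR (4 at an unadjusted p below 0.05, and 1 lower in DESeq2). Their part in the histone difference was not tested. Among RNAs without a poly(A) tail, RN7SK had 675 to 1151 counts and RMRP 65 to 103 counts per library; both were chosen after their values were seen.

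Many H2A and H2B genes lie head to head and share the DNA between their starts. In the RefSeq promoter table (GRCh38.p14), 61 members had a promoter of 250 bases before and 50 after the start. Letters searched on both strands were CCAAT, the NF-Y motif, TATAAA, the TATA box, and ATTTGCAT, the octamer that POU2F1 binds. CCAAT was present in 83.6% of the member promoters and in 34.6% of 35108 promoters, TATAAA in 65.6% and 11.5%, and ATTTGCAT in 39.3% and 1.77%. The octamer stood in 81.2% of H2B and 68.8% of H2A promoters and in 0 of 29 promoters of other members. Promoters of a head-to-head pair overlap, so such pairs count the same letters in both. Shown are the regions between the starts of 3 pairs in which 1 gene was called, or both, on the plus strand of GRCh38.p14, at chr1:149886683-149886917, chr6:26123927-26124171 and chr6:27132796-27133042 in this order. Capitals mark the 3 motifs on either strand, and TATAAA matches of both strands overlap in the run TTTATAAA of the last.
HIST2H2BE and HIST2H2AC: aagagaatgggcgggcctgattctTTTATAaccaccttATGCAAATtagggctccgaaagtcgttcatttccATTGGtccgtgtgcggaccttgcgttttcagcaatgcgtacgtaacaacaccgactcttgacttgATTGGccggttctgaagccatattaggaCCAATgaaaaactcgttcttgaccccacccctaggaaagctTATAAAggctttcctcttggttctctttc
HIST1H2BC and HIST1H2AC: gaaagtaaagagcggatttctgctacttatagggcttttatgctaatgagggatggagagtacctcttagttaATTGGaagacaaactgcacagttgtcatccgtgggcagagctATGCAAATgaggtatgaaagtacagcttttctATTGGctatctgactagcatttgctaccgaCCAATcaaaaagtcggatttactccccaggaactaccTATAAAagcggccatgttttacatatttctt
HIST1H2BJ and HIST1H2AG: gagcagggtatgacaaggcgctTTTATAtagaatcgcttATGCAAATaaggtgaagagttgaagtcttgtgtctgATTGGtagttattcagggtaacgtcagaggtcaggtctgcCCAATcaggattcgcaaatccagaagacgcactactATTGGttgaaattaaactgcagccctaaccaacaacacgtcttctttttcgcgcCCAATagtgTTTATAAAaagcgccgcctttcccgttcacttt

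The members had 11 such pairs with starts within 500 bases, and 6 had both genes tested. HIST2H2BE and HIST2H2AC share 235 bases with 1 octamer and were called in opposite directions between replicate numbers, at 1.12 and -2.46. The call of HIST2H2AC rests on low counts, and it passed the filter only through its replicate 1 libraries. HIST1H2AC (1.92) shares 245 bases with HIST1H2BC (0.29), and HIST1H2AG (0.68) shares 247 bases with HIST1H2BJ (-0.45). In both pairs the first gene passed the test and the second did not. HIST1H2AI rose by 1.92, and HIST1H2BL across 243 bases had -0.39 (adjusted p = 0.61, edgeR). HIST1H2BN rose by 0.79, and HIST1H2AK across 193 bases had 0.59 (adjusted p = 0.33, edgeR), although these genes overlap in GENCODE 29. Neither HIST1H2AM (0.35) nor HIST1H2BO (0.16) passed. The differences within pairs were not tested.

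**Figure D4:**
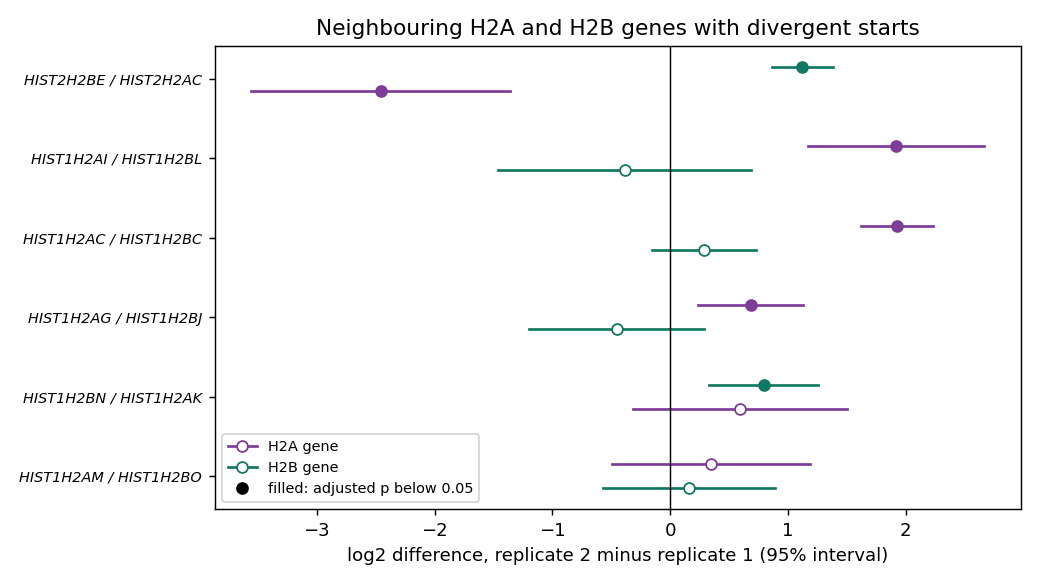
Log2 difference, replicate 2 minus replicate 1, with its 95% interval (x axis) for both genes of the 6 head-to-head pairs with both genes tested (y axis), H2A genes in purple and H2B genes in green, filled where the adjusted p was below 0.05. HIST2H2BE and HIST2H2AC lie on opposite sides of 0, at 1.12 and -2.46, the latter on low counts that passed the filter only through replicate 1.

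The comparisons of the clones with WT ask how the listed BRMS1v2 lines differ from the parental line. In edgeR with 1 mean per group, 0 of 29 members were called in C2 against WT (0.0117% of all genes), in C1 against WT (0.0117%), in the clones together against WT (0.198%) and in C2 against C1 (0%). In each of the 4, 0 members had an unadjusted p below 0.05, against 6.75%, 7.87%, 9.79% and 0.356% of all genes in the same order. DESeq2 called 0 members in each, against 1.22%, 1.58%, 2.29% and 0% of all genes. These fits held no term for the replicate number, so the difference between replicate numbers entered their spread. For HIST2H2BE in C1 against WT, the edgeR SE was 0.57, against 0.15 with the replicate number as a block. The 0 calls here therefore do not show that members differed less than other genes. The median log2 difference over the 29 members was -0.05 in C2, -0.19 in C1 and -0.10 in the clones together against WT, and 0.11 for C2 against C1. The summed level of all 76 members was above WT in the clones, with 513.9 and 505.3 CPM in C2 and C1 against 430.1 CPM in WT within replicate 2, and 257.1 and 251.9 CPM against 211.2 CPM within replicate 1. The ratio to WT was 1.19 and 1.22 in C2 and 1.17 and 1.19 in C1, for replicate 2 and replicate 1. The sum of the 5 members with the highest mean carried this, with ratios of 1.27 and 1.24 in C2 and 1.25 and 1.23 in C1. Of these, HIST1H2BK, HIST2H2BE and HIST1H2AC were above WT of the same number in every clone library. Within replicate 2, HIST1H1C was below WT in C2 and C1 (74.3 and 62.1 against 87.1 CPM). HIST1H2BD was below WT there in C1 (21.4 against 23.8 CPM), and both genes were above WT within replicate 1. For the other 71 members the ratio was 0.835 and 1.13 in C2 and 0.784 and 1.03 in C1, so that the clones were below WT within replicate 2. No member had all 4 clone libraries above both WT libraries (11.9% of all genes), and 2 of 29 (6.9%) had all 4 below (11.9% of all genes). One was HIST4H4, the lone gene of its cluster, with 1.11, 0.948, 1.17 and 0.820 CPM in the clones (C2 before C1, replicate 2 before replicate 1), against 2.39 and 1.34 CPM in WT. Its log2 difference of -0.88 for the clones together did not pass the test (adjusted p = 0.52, edgeR). The other was HIST1H3B, with 2 to 10 counts in the clones, against 10 and 12 in WT.

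With the replicate number as a block, edgeR called HIST2H2BE and HIST1H2AC higher in C1 (2 of 29 members, against 7.03% of all genes called in either direction and 2.96% called higher), no member in C2 (4.54%; 3 members or 10.3% at an unadjusted p below 0.05, against 19% of all genes, and 0 by DESeq2), HIST2H2BE higher in the clones together (9.74%, and 4.12% higher) and no member between C2 and C1 (0%; 0 at an unadjusted p below 0.05, and 0 by DESeq2). HIST2H2BE averaged 88.0 ± 45.8 CPM in C2, 94.3 ± 51.3 in C1 and 62.6 ± 31.8 in WT (SD, n = 2 each). Each clone library lay above the WT library of its own number. With the block it lay 0.58 above WT in C1 (95% interval 0.26 to 0.90, SE 0.15, adjusted p = 0.032), 0.49 in C2 (0.17 to 0.80, SE 0.15, adjusted p = 0.082) and 0.53 in the clones together (adjusted p = 0.022, edgeR). HIST1H2AC averaged 49.3 ± 40.9 CPM in C2, 56.5 ± 42.1 in C1 and 40.4 ± 36.1 in WT (SD, n = 2 each), with a blocked difference of 0.61 in C1 (95% interval 0.25 to 0.97, adjusted p = 0.046, edgeR) and 0.34 in C2 (-0.02 to 0.70, adjusted p = 0.30, edgeR). HIST1H2BK, the H2B gene with the most counts, was above WT by 0.46 in C2 and 0.35 in C1 with the block, and neither passed (adjusted p = 0.14 and 0.24, edgeR). Blocked, the call of HIST2H2BE in C1 was lost without any single library other than replicate 1 of WT (adjusted p from 0.059 to 0.16) and held without that library (0.035). The call of HIST1H2AC in C1 was lost without replicate 2 of C2 (0.17), replicate 1 of C2 (0.17), replicate 1 of C1 (0.30) and replicate 1 of WT (0.16). For the clones together, HIST2H2BE lost its call without either library of C2 (0.17 and 0.15) and without replicate 2 of WT (0.078).

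**Figure D5:**
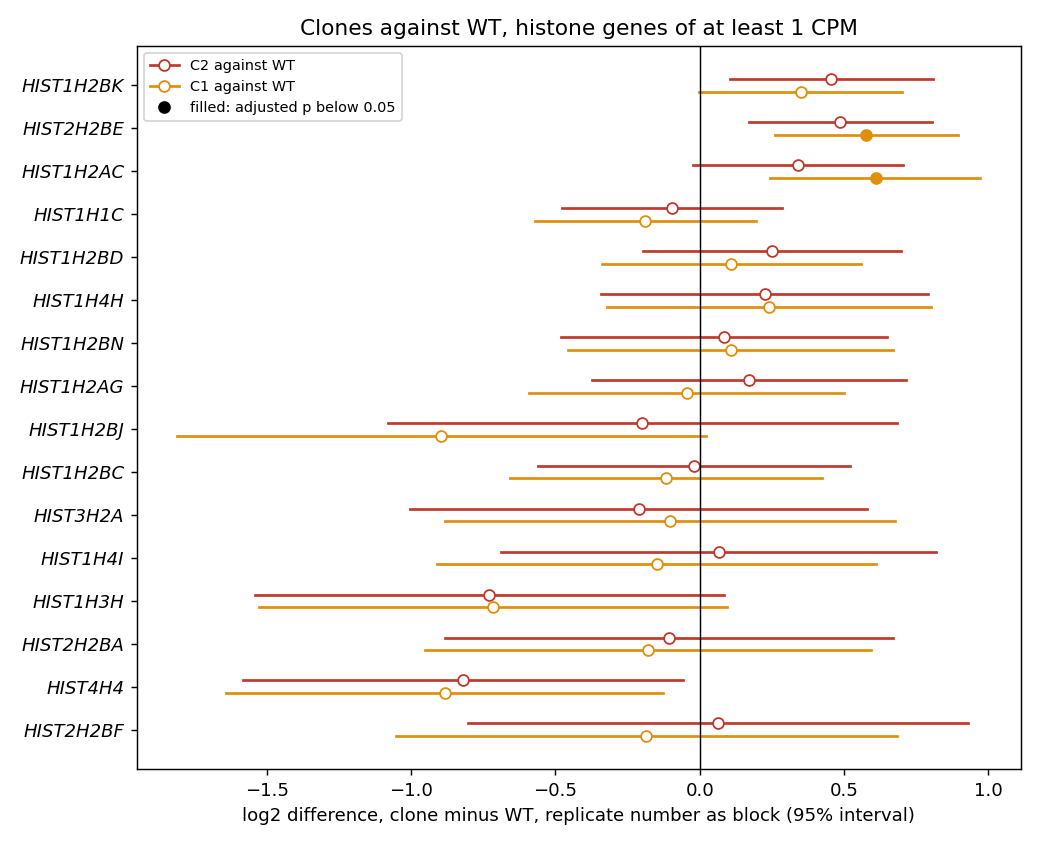
Log2 difference from WT with its 95% interval (x axis) for the 16 histone genes with a mean of at least 1 CPM (y axis), C2 above C1 within each gene, with replicate number blocked. Filled points have an adjusted p below 0.05 and are HIST2H2BE and HIST1H2AC in C1, while HIST4H4 lies furthest left in C2 at -0.82.

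The cell-cycle lists stood beside the histone values of the clones as follows. In the blocked fit, 12 of 42 G1/S genes fell in C1 (28.6%, against 7.03% of all genes called in either direction). In C2, 1 of 42 fell (2.38%, against 4.54%). Of the 27 G2/M genes, 0 were called in either clone, with medians of -0.98 in C1 and -0.12 in C2 (0 at an unadjusted p below 0.05, and 0 by DESeq2). Without the block the G2/M medians were -0.30 in C1 and 0.07 in C2, where the sign turned. Within replicate 2 the G2/M sum was 390.8 CPM in C1 against 1963 CPM in WT, and within replicate 1 it was 4629 CPM against 4176 CPM, so C1 was lower in replicate 2 only. Between the clones, 0 of 42 and 0 of 27 were called in C2 against C1, with medians of 0.41 and 0.87 (20 and 0 at an unadjusted p below 0.05, and 0 by DESeq2 in both lists). SLBP and NPAT did not pass in either clone, at 0.05 and -0.29 in C2 and -0.19 and -0.34 in C1 (adjusted p = 0.92, 0.40, 0.60 and 0.28, edgeR). Of the histone genes outside the set, H1F0, a linker histone known from resting cells, fell in C2 (-0.68, adjusted p = 0.044), and H2AFX fell in C1 (-0.79, adjusted p = 0.0105, edgeR). For the clones together, 4 of 11 fell and 1 rose (45.5% called, against 9.74% of all genes). H1F0, H1FX, H2AFX and H2AFJ fell by 0.63, 0.56, 0.65 and 0.63, and H3F3A rose by 0.51 (adjusted p = 0.018, 0.022, 0.0090, 0.023 and 0.048, edgeR). The part of the cell-cycle lists in the histone values was not tested.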

How the data were processed

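Per the labels, total RNA of 6 H358 libraries was isolated with a column kit and sequenced as read pairs. The authors deposited unnormalised read counts for each gene and library in 1 table, with 5 totals that are not genes (21.3% to 22.4% of the reads listed), which stayed out of library sizes and tests. Listed in the submitters' processing notes are the build hg19 and the tools STAR 2.5.0a, HTSeq 0.5.3 and cutadapt 1.6; strand setting, annotation release and RNA selection are not given in the sources used here.

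Tools were edgeR 4.0.16, limma 3.58.1 and R 4.3.3. Genes kept by filterByExpr over the groups (17129) were scaled by TMM and tested with robust quasi-likelihood F tests, with Benjamini-Hochberg adjustment over all genes tested. Group comparisons used 1 mean per group over all 6 libraries, and the replicate comparison used group and replicate number. Only edgeR with the replicate term was tested on simulated data, for replicate 2 against replicate 1 and for C1 against WT. The fits without that term, the interaction and DESeq2 were not. Alternatives were DESeq2 size factors, other filters, DESeq2 1.42.0, the replicate block, the libraries compared alone, no group term, and each library left out.

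Groups and replicate numbers come from the sample titles. Deviations of same-numbered libraries from their group means correlated by 0.701 (C2 and C1), 0.634 (C2 and WT) and 0.584 (C1 and WT). On this ground, the fits with a replicate term treated libraries of 1 number as pairs. Only the data give this pairing, and deviations of 2 libraries in a group mirror each other. Replicates were not copies, with a chi-square per gene of 112 in C2, 127 in C1 and 98.1 in WT.

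The members and gene lists were chosen with earlier results of these data known. Named are members with a mean of at least 1 CPM or called in any comparison, up to 4 called genes with the largest difference per other list, and SLBP, NPAT, MKI67, CCNE2, CDK1, PCNA and CDKN1A. Floors of 3 counts cover counting error only. No coordinates of hg19 are given.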

Additional observations from a re-analysis of the deposited data

How the results depend on the processing

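Between replicate numbers, 12 of 29 members were called (41.4%, against 24.7% of all genes), and 12 of 29 with DESeq2 size factors (41.4%, against 24.6%). It was 17 of 62 without a filter (27.4%, against 15.9%) and 9 of 16 at a mean of at least 1 CPM (56.2%, against 27%). DESeq2 called 11 of 29 (37.9%, against 22.4%), with no adjusted p for 6. Without a group term it was 10 of 29 (34.5%, against 11.8%). Leaving out 1 library gave 4 to 16. It was 4 without either library of C2, 12 without either of C1 and 16 without either of WT, since the lone library of a group then carries no information on the replicate number. The highest adjusted p over the alternatives was 0.052 for HIST1H2BD and HIST1H3H, 0.059 for HIST1H2AI, 0.096 for HIST2H2AC, 0.15 for HIST1H2BN, 0.17 for HIST1H3J, 0.19 for HIST1H2AG and 0.24 for HIST1H2BK. With 1 library left out, CDKN1A ranged between -0.014 and 0.639. Without the block, 0 members were called in fits of only the libraries compared. Of all genes, these fits called 0% in C2 against WT, 0.00597% in C1 against WT and 0% between clones. The replicate block gave 2 members in C1, 0 in C2, 1 in the clones together and 0 between clones, and the same numbers with DESeq2. With the block and 1 library left out, the count was 0 to 5 in C1, 0 to 3 in C2, 0 to 5 in the clones together and 0 to 1 between clones. Unblocked differences from WT turned round as follows. Without replicate 2 of C2, HIST1H2AC was at -1.01 in C2 and -0.26 in the clones together, and HIST2H2BE at -0.19 in C2. Without replicate 2 of C1, HIST1H2AC was at -0.59 in C1 and -0.15 in the clones together, and HIST2H2BE at -0.10 in C1. Without replicate 1 of WT, HIST1H2AC was at -0.42 in C2, -0.22 in C1 and -0.32 in the clones together. Without replicate 2 of WT, the values were highest: HIST1H2AC at 1.73 in C2, 1.92 in C1 and 1.83 in the clones together, and HIST2H2BE at 1.14 in C2 and 1.24 in C1. Each of these leaves groups with unequal shares of the replicate numbers. With 1 library left in a group, it is assumed to vary like the others. Of the 76 members, 47 were too low to be tested in the chosen fit. With no filter, 33 of these could be tested between replicate numbers and 3 were called, on 15 to 33 counts each.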
